A study of Homo sapiens with 4 samples.

Results

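Chromosome 19 holds the densest set of zinc finger genes in the human genome, and 127 of them were compared between K562 and HepG2 by the ribosome footprints that cross their splice junctions. They were chosen by name and by reads: genes annotated on chromosome 19 whose symbol is ZNF or ZFP followed by a number, with or without 1 letter after it, and with 20 or more uniquely mapped reads summed over both lines. Of 268 genes with such a name, 127 met the minimum, 101 had 1 to 19 reads, 38 had 0 reads and 2 had no junction of their own in the tables. The members are 125 protein-coding genes and 2 pseudogenes (ZNF788P and ZNF542P), out of 10956 genes measured in all. Because the sum of reads chose the members, that sum is given as a description, and a gene near the minimum that is nearly silent in 1 line can only have passed through the other.

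K562 derives from a chronic myelogenous leukemia and keeps erythroid traits, and HepG2 derives from a liver tumour and keeps traits of hepatocytes. Neither line was given a treatment or an engineered genotype in the labels, and cycloheximide, a blocker of translation elongation, was present at lysis of both. Ribosome profiling sequences the short messenger RNA fragments that ribosomes protect from nuclease. There are 2 samples of each line, but the deposited table of a line pools them, so no value here has a replicate check and no test across samples was possible. The intervals given are 95% intervals. Those of ratios and shares are exact and cover counting error only. Those of medians come from the ranked values of the genes, taken as independent, and are no check between samples.

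Most zinc finger proteins of chromosome 19 carry tandem C2H2 fingers, each a short loop held by a zinc ion that reads a few bases of DNA, and many carry a KRAB box at the amino end. The KRAB box recruits the corepressor TRIM28 (KAP1), which brings the histone methyltransferase SETDB1 and heterochromatin proteins, and many of these proteins silence transposable elements. The family grew by tandem duplication, so neighbours on the chromosome are often close relatives. In a typical gene the KRAB box lies on short exons near the start and all fingers lie on 1 long last exon.

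That layout decides what junction footprints can see. In the annotation, the median protein-coding member has 86.6% of its coding sequence after its last junction, against 10.3% in other protein-coding genes, and 235 coding bases before it, against 1200. Translated coding sequences of 123 of the 125 coding members held at least 1 C2H2 match, with a median of 13 fingers, and 98.2% of their 1564 fingers lie after the last junction. The reads below therefore come from the 5′ ends of these genes and not from their fingers. ZNF738 and ZFP36 had no C2H2 match. ZFP36 (tristetraprolin) is a different kind of protein, which binds AU-rich elements in messenger RNA through CCCH fingers and promotes decay. It had 18 reads in K562 and 10 in HepG2.

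The lines matched their labels at the markers examined. The erythroid genes RHAG, GATA1, HBE1 and LMO2 had 230 to 7365 reads in K562 and 0 in HepG2, and the hepatocyte genes ALB, AFP, APOB, HNF4A and TTR had 0 to 162 reads in K562 and 1005 to 371360 in HepG2. All members together had 7695 reads in K562 and 5291 in HepG2. That is 0.107% and 0.0551% of the unscaled reads of measured genes, of which ALB and AFP had 349063 and 371360 in HepG2. ZNF146 gave 1090 of the member reads in K562 and 304 in HepG2, and ZNF121 788 and 265. Single members had between 20 and 1394 reads over both lines, with a median of 49, so that only large differences can be seen for most of them.

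Most members passed no limit on the difference between the lines. Reads were scaled by TMM, and a gene was called when the whole interval of its K562 to HepG2 ratio lay past 2-fold. On that rule 18 of 127 members (14.2%) were higher in K562, 15 (11.8%) were lower in K562, and 94 passed neither limit. Among all measured genes 16.8% were called higher in K562 and 21.9% higher in HepG2. The share higher in K562 is near that of all genes. When each table was scaled by its total reads instead, the median log2 ratio of all genes stood at 0.41 rather than -0.01, and 27 members were higher and 14 lower in K562.

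The median log2 ratio of members was 0.46 (interval of the median 0.19 to 0.66), against -0.01 for all genes. Other genes of chromosome 19 had a median of 0.36 (n = 620) and zinc finger genes of other chromosomes 0.61 (n = 163). A median above 0 was thus shared with both sets. The spread was narrow for genes so thinly read. Among genes with 20 to 100 reads in total, the quartiles of members were -0.59 and 0.94 (n = 90) and those of all genes -2.06 and 1.84 (n = 2418). In that range 9 members were called higher in K562 and 12 lower (13.3%), against 555 and 594 (24.6%) of all genes. Above 100 reads, 9 of 37 members (24.3%) were higher in K562 and 3 (8.11%) lower, against 1281 and 1808 (21.2%) of 8538 genes in all, with medians of 0.85 and -0.02. The share of calls in members thus stood below that of all genes at low totals in both directions and, at high totals, above it for K562. The last rests on few genes. ZNF788P, ZNF100, ZNF714, ZNF430 and ZNF808 among them were no longer called without their most-read junction.

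Among the members called lower in K562, 9 had no read there, which is 9 of all 127 members. The same held for 597 of 10956 measured genes. Among genes with 20 to 100 reads in total it held for 8 of 90 members and 295 of 2418 genes. ZNF556 (ENSG00000172000, chr19:2867335-2883445, 9 fingers) had 0 reads in K562 and 401 in HepG2. With a count of 0 set to a floor of 3 reads, that is 134-fold lower in K562, and the interval of the ratio begins at 109-fold. All 401 reads lay at coding junctions, and 309 of them crossed the junction next to the start codon. ZNF114 had 0 and 42 reads in K562 and HepG2, and ZNF331, an imprinted gene, had 0 and 39. ZNF682 had 0 and 39, ZNF738 had 0 and 32, and ZFP14 had 0 and 24. ZNF805 had 0 and 22, and ZFP82 and ZNF615 had 0 and 21 each. With the same floor these 8 genes were 7.03-fold to 14.1-fold lower in K562, with intervals that begin between 5.23-fold and 10.9-fold. None of them had over 42 reads.

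The other members lower in K562 kept a few reads in that line. ZNF69 (chr19:11887784-11914329) had 7 reads in K562 against 152 in HepG2, 21.8-fold lower (interval 10.3 to 55.2). ZNF563 (chr19:12317477-12333720) had 22 and 240, 10.96-fold lower (7.07 to 17.8). The 2 genes lie in the same cluster. ZNF772 had 3 and 35, ZNF780B 1 and 24, ZNF234 1 and 19, and ZNF264 2 and 18. Their intervals begin between 2.16-fold and 3.93-fold.

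Members called higher in K562 included the 2 most-read ones. ZNF146 (ENSG00000167635, chr19:36214602-36238774), a protein made almost wholly of fingers, had 1090 reads in K562 against 304 in HepG2, for a ratio of 3.57 (3.14 to 4.07). ZNF121 had 788 and 265, a ratio of 2.96 (2.57 to 3.42). Both were well read in each line, so the lines differed in amount and not in presence.

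The largest ratios belonged to thinly read genes. ZNF324 had 45 reads in K562 against 2 in HepG2, for a ratio of 22.4 (5.85 to 191), and its neighbour ZNF324B had 36 and 4, a ratio of 8.96 (3.21 to 34.6). ZNF175, known as a repressor of HIV transcription, had 33 and 2, a ratio of 16.4 (4.20 to 141). ZNF681 had 37 reads in K562 against 0 in HepG2, 12.3-fold higher with the floor, and its interval begins at 9.49-fold. ZNF665 had 20 and 0, 6.64-fold higher with the floor, and its interval begins at 4.91-fold. ZNF708 had 37 and 3, and ZNF254 had 21 and 2.

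Better-read members with higher counts in K562 had ratios between 3.44 and 6.47. ZNF611 had 78 reads in K562 and 12 in HepG2, ZNF473 87 and 16, and ZNF100 169 and 33. ZNF473 (ZFP100) is a part of the machinery that cuts histone messenger RNA at its 3′ end. ZNF30 had 110 and 24, ZNF430 182 and 42, and ZNF780A 67 and 16. ZNF714 had 118 and 34 and ZNF808, a KRAB protein that silences MER11 elements, 90 and 26. The pseudogene ZNF788P had 210 and 49. ZNF788P, ZNF100, ZNF714, ZNF430 and ZNF808 were no longer called when their most-read junction was left out.

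**Figure D1:**
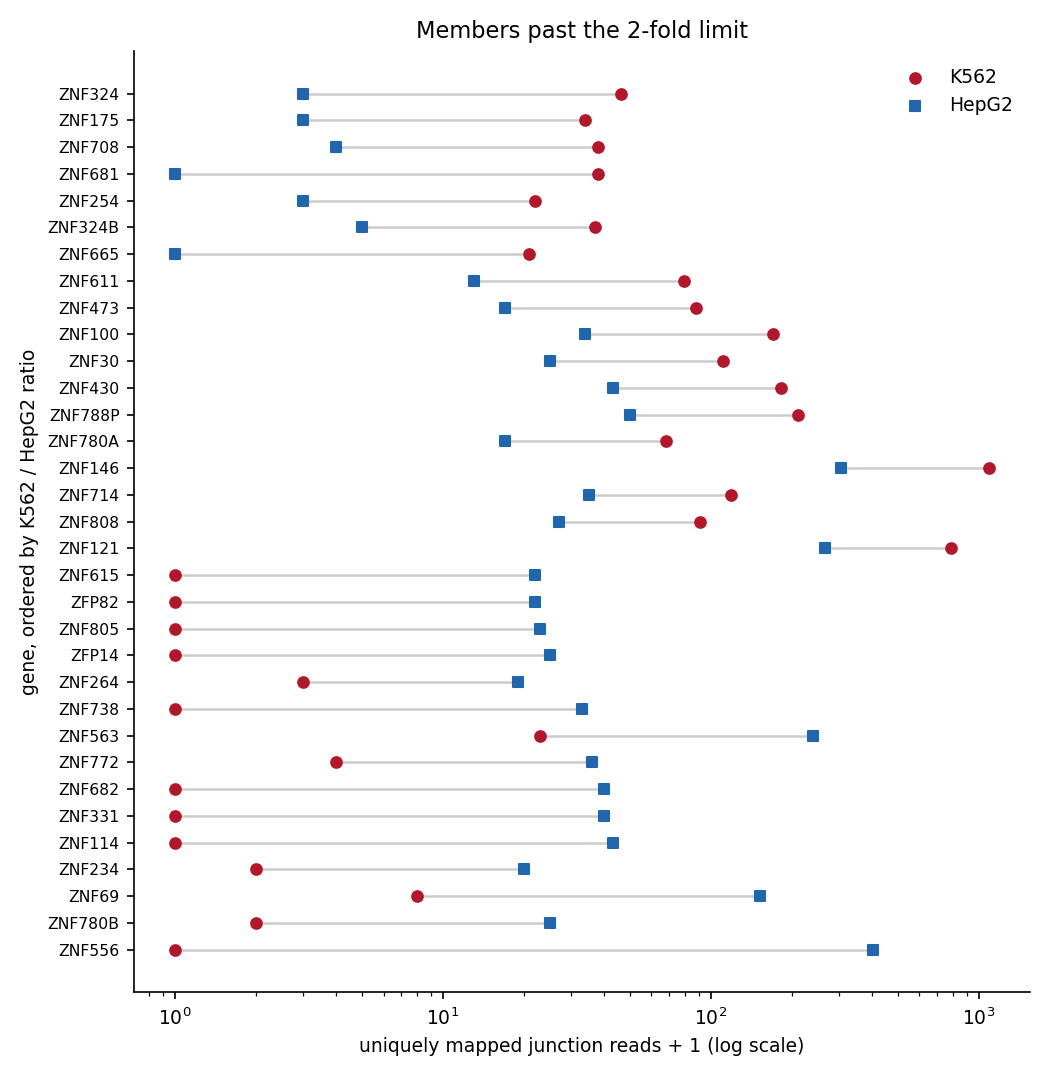
Uniquely mapped junction reads plus 1 (x axis, log scale) of the 33 members whose interval lay past 2-fold, 1 gene to a row, ordered by ratio. K562 is shown by circles and HepG2 by squares; 9 genes have no read in K562, while ZNF681 and ZNF665 have none in HepG2.

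The members that passed neither limit include well-read genes with nearly equal counts. ZNF44 had 76 reads in K562 and 75 in HepG2, with a ratio of 1.01 (0.723 to 1.41), ZNF614 had 78 and 84, with 0.924 (0.670 to 1.27), and ZNF787 had 109 and 102, with 1.06 (0.804 to 1.41). Their intervals lie wholly within 2-fold, which is a bound on the difference and not a sign of equality. ZNF507 had 225 and 142 reads, with a ratio of 1.58 (1.27 to 1.96), so that its interval lies above 1 and below 2. The junctions of ZNF614 went opposite ways: its most-read one had 67 reads in K562 against 39 in HepG2, and the rest together 11 and 45, which is 3.98-fold lower in K562 and past the limit.

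Several members with known partners or targets passed neither limit. ZNF274, which recruits SETDB1 to the 3′ ends of zinc finger genes, had 57 reads in K562 and 36 in HepG2, with a ratio of 1.58 (1.02 to 2.46). ZNF224, a repressor of the aldolase A gene, had 43 and 25, with 1.71 (1.02 to 2.92). ZNF350 (ZBRK1), a partner of BRCA1, had 13 and 27, with 0.479 (0.227 to 0.961). The intervals of these 3 genes exclude 1 but reach across or up to 2-fold. A further pair lay close to the limit with fewer reads in K562. ZNF443 had 10 and 39 reads, 3.92-fold lower (1.92 to 8.80), and the pseudogene ZNF542P had 22 and 64, 2.92-fold lower (1.78 to 4.98).

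At the read minimum, 6 members had a total of 20. ZNF66 had 3 reads in K562 and 17 in HepG2, ZNF234 1 and 19, ZNF264 2 and 18, ZNF543 8 and 12, ZNF416 12 and 8, and ZNF665 20 and 0. Just outside it, ZNF552 had 11 and 8, ZNF606 8 and 11, ZNF816 10 and 8, and ZNF702P 18 and 0.

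Along the chromosome the 268 annotated genes fall into 10 clusters of 5 or more genes, split where neighbouring starts lie over 500 kb apart, and 10 members lie outside them. Clusters 1 to 4 lie on the short arm and clusters 5 to 10 on the long arm. The share of annotated genes that met the read minimum ran from 22.2% in cluster 9 (4 of 18) and 33.3% in cluster 4 (14 of 42) to 80.0% in cluster 1 (4 of 5). Cluster 8, with 26 of 43, gave the most members.

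Cluster 4 (ZNF101 to ZNF254, 19.7 to 24.1 Mb) had the highest median log2 ratio, 1.39, with 6 of 14 members higher in K562 and 2 lower. The interval of that median, -2.51 to 3.39, spans both directions: ZNF430, ZNF714, ZNF708, ZNF100, ZNF681 and ZNF254 were higher in K562 while ZNF682 and ZNF738, among them, had no read there. ZNF101, its most-read member, had 318 reads in K562 against 233 in HepG2, for a ratio of 1.36 (1.14 to 1.62). Cluster 2 (ZNF414 to ZNF846, 8.5 to 9.8 Mb) had a median of 0.86 (0.26 to 1.25), and 9 of its 10 members lay above 0. ZNF121 was its only call, and ZNF266 had 222 reads in K562 against 115 in HepG2, for a ratio of 1.92 (1.53 to 2.43).

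Cluster 3 (ZNF653 to ZNF791, 11.5 to 12.6 Mb) held ZNF69 and ZNF563 beside ZNF788P, and its 16 members had a median of 0.31 (-0.41 to 1.17). Cluster 6 (ZNF565 to ZNF573, 36.2 to 37.8 Mb) had a median of 0.28 (-0.59 to 0.68) over 15 members, with ZNF146 higher in K562 and ZFP14 and ZFP82, 3.92 kb apart on the same strand, without a read in K562. Cluster 8 (ZNF175 to ZNF331, 51.6 to 53.6 Mb) had a median of 0.55 (-0.114 to 1.496) over 26 members, with 4 higher and 2 lower.

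Cluster 1 (2.8 to 2.9 Mb, 4 members) had a median of -0.0045, with ZNF556 as its only call. Cluster 7 (43.5 to 44.5 Mb, 9 members) and cluster 10 (57.2 to 58.5 Mb, 15 members) both stood at -0.27, with intervals of -1.09 to 1.12 and -1.01 to 0.99, and cluster 9 (55.5 to 56.7 Mb, 4 members) stood at -0.31 with no call. ZNF283, the most-read member of cluster 7, had 103 reads in K562 against 44 in HepG2, for a ratio of 2.33 (1.62 to 3.40). ZNF460, that of cluster 10, had 65 and 78, a ratio of 0.83 (0.587 to 1.17). Cluster 5 (34.5 to 35.0 Mb) had 4 members at 0.62, and ZNF30 was its only call. The intervals of all cluster medians that could be given one overlapped each other.

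Genes of other kinds inside the same clusters numbered 24, of which 8 (33.3%) were higher in K562 and 2 (8.33%) lower, with a median of 0.74. The shares were 16.8% and 21.9% among all genes, and 21.8% and 11.6% among other genes of chromosome 19. In cluster 7 the 9 members had a median of -0.27 and the 5 such genes 0.59. The neighbours include A1BG, a plasma protein gene of cluster 10, with 0 reads in K562 and 134 in HepG2. These sets are too small to set a cluster's neighbours against its members.

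**Figure D2:**
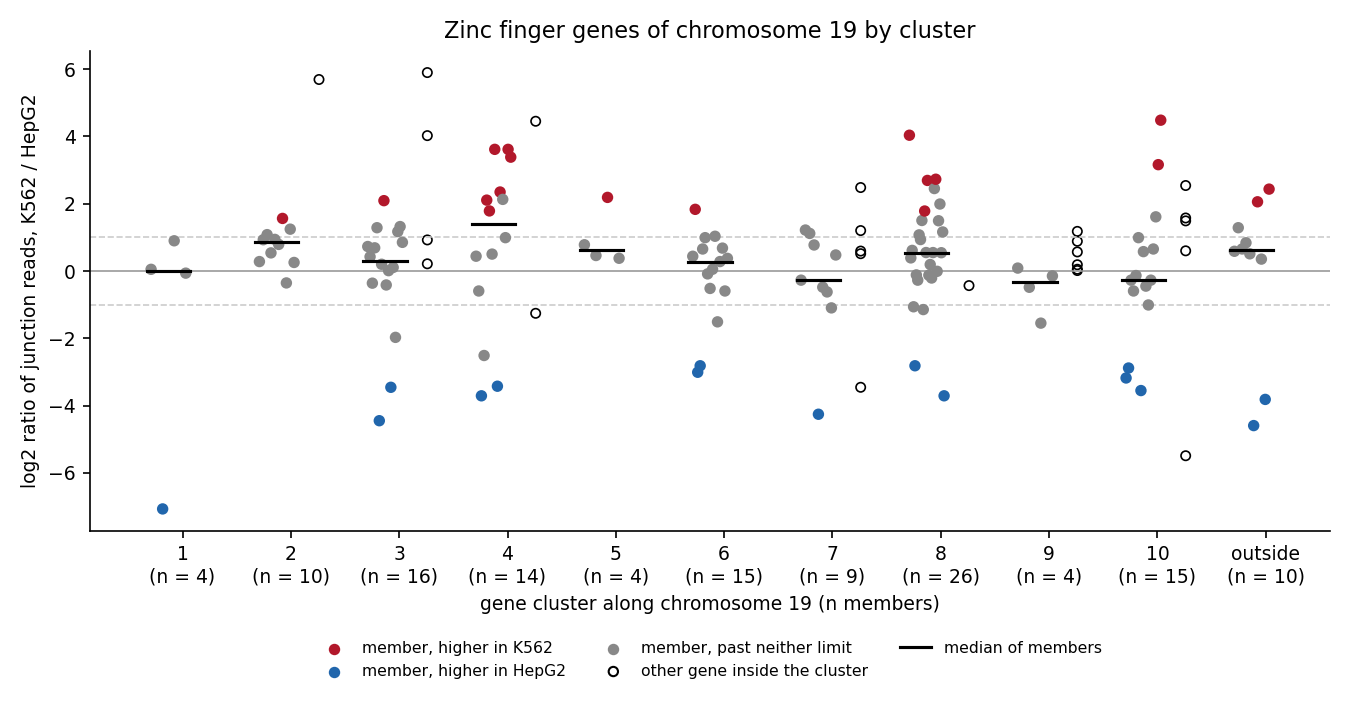
Log2 ratio of K562 to HepG2 junction reads (y axis) for each member by gene cluster (x axis, in order along the chromosome, with the members outside clusters at the right). Filled points are members, coloured by call, bars are medians of members, open circles are other genes inside the cluster, and dashed lines mark 2-fold. A call needs the whole interval past 2-fold, so a point past a dashed line can be uncalled. Cluster 4 holds both 6 members called higher and 2 called lower in K562, and cluster 1 holds ZNF556 at -7.07.

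Calls were set side by side for neighbouring members. Of 107 adjacent pairs within clusters, 62 had no called gene and 37 had 1. Both genes were called in 8 pairs, and of these 3 were both higher in K562 (ZNF430 with ZNF714, ZNF681 with ZNF254, ZNF324B with ZNF324), 2 were both lower (ZFP14 with ZFP82, ZNF264 with ZNF805) and 3 went opposite ways (ZNF708 with ZNF738, ZNF738 with ZNF100, ZNF146 with ZFP14). Across the 107 pairs, which share genes with each other, Spearman's rho between the log2 ratios of neighbours was 0.18 and Pearson's r 0.13.

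Some close copies differed at few bases of a junction and yet had uniquely mapped reads there. Which bases made a read unique was not tested. The junction sequences here are 15 bases on each side of the intron, read from GENCODE release 29 transcripts on GRCh38 in the direction of the gene, and capitals mark the positions at which the copies of a pair differ. The 3 pairs shown are neighbours with both genes called, picked after their values were seen from several such pairs, at a coding junction where they are alike.
ZNF780A, intron chr19:40076210-40081818, minus strand: gcagaCggtatccagatttggagtTaaaat
ZNF780B, intron chr19:40036627-40047374, minus strand: gcagaTggtatccagatttggagtCaaaat
ZNF324, intron chr19:58469845-58470730, plus strand: ggaggcGcaacCctggttcctggagtttga
ZNF324B, intron chr19:58454345-58455182, plus strand: ggaggcTcaacTctggttcctggagtttga
ZNF264, intron chr19:57194002-57205396, plus strand: tcctggtGtctctggggtgtcctgttccca
ZNF805, intron chr19:57244050-57248604, plus strand: tcctggtAtctctggggtgtcctgttccca

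At the junction shown, ZNF780A had 41 reads in K562 against 14 in HepG2, and ZNF780B had 0 and 7, with 2 mismatches between the 30 bases. ZNF324 had 13 and 0 and ZNF324B 12 and 1, also with 2 mismatches. ZNF264 had 1 and 6 and ZNF805 0 and 7, with 1 mismatch. ZNF780A and ZNF780B lie outside the clusters and next to each other, and over all their junctions they had ratios of 4.17 (2.39 to 7.71) and 0.0415 (0.00101 to 0.254).

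Where the sequence of a junction is the same in several genes, a smaller share of mapped reads was unique. Of the junctions of members, 41 in 24 genes had 30 bases found in the transcripts of another gene, and 20.8% of their mapped reads were unique, against 93.9% at the 1237 junctions with no such match. Examples are the following 2, the first found also in 6 other genes and the second in 5.
ZNF675, intron chr19:23662210-23663031, minus strand: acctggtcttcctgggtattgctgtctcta
ZNF468, intron chr19:52849214-52854257, minus strand: atggctcttcctcagggtctattgacattc

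The ZNF675 junction had 13 unique of 20 mapped reads in K562 and 5 of 7 in HepG2. That of ZNF468 had 0 unique of 11 mapped reads in K562 and 0 of 2 in HepG2. The genes that share the ZNF468 letters, ZNF28, ZNF525, ZNF765, ZNF813 and ZNF888, lie in cluster 8 as well. Cluster 8 had the lowest median share of unique reads, 81.6%, and 8 of its 26 members were under 70%. In cluster 4 ZNF254 had 46.0% unique reads, so its 21 reads in K562 and 2 in HepG2 describe only what can be placed.

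Reads in 5′ untranslated regions made up a larger part of member footprints than of other genes' footprints. In the 125 coding members they were 39.2% of junction reads in K562 (38.1 to 40.3) and 25.6% in HepG2 (24.4 to 26.8). In 10464 other protein-coding genes they were 6.50% in K562 and 3.28% in HepG2, and in 160 zinc finger genes of other chromosomes 10.6% and 11.6%. In the last set ZNF595 alone gave 8908 of the 30541 K562 reads. Of these, 8761 lay at coding junctions right after the start codon, which lowers the K562 share of that set. The share was not taken without ZNF595. Junctions over 30 bases before the start codon, where a footprint at the start codon does not reach, held 34.8% of member reads in K562 and 21.9% in HepG2, against 1.93% and 0.840% in other genes. Reads there are footprint-sized fragments, and whether each came from a translating ribosome was not tested.

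The gene layout differed between the sets as well, and its part in that share was not tested. Members have few coding junctions, a median of 3 against 9 in other coding genes, and junctions past 300 coding bases held 3.10% of member reads in K562 and 5.87% in HepG2, against 47.6% and 57.7% in other genes. Per junction of the modelled transcripts, members had 12.7 reads in K562 and 6.88 in HepG2 in the 5′ untranslated region. They had 8.96 and 8.30 in the coding part. Other coding genes had 48.8 and 34.9 in the 5′ untranslated region and 55.1 and 77.2 in the coding part. In HepG2 the coding part was the better read of both in members and in other genes, and in K562 it was so in other genes only. These values are pooled sums divided by the number of junctions, so a single well-read gene can set them. ZNF146 had 623 K562 reads at a junction of its 5′ untranslated region, beside 1521 over the 120 such junctions of members. The order of the parts in K562 may rest on that gene, and the values were not taken without it.

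A few genes carried much of the sum. ZNF146 has no coding junction in the annotation, and 880 of its 1090 K562 reads and 245 of its 304 HepG2 reads lay in its 5′ untranslated region, with most of the rest at a junction of a noncoding transcript. Without it the share was 32.1% in K562 and 22.2% in HepG2. ZNF266 had 196 of 222 and 100 of 115 reads there, ZNF507 179 of 225 and 110 of 142, and ZNF850 122 of 142 and 51 of 69. By gene, the median share was 13.2% in members and 0 in other coding genes, and it passed 50% in 30 members (24.0%) and in 4.93% of other coding genes. Zinc finger genes of other chromosomes lay nearer to members, with a median of 7.996% and 30 of 160 (18.8%) past 50%.

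The higher share in K562 was seen in the sum and not in most members. Summed reads in the 5′ untranslated region were 2.20 times as many in K562 as in HepG2, against 1.14 times in the coding part, after scaling. In the 44 members with 10 or more reads in each part, reads of the 5′ untranslated region per coding read were higher in K562 in 19, and the median log2 difference was -0.31 (-0.48 to 0.30). In other coding genes they were higher in K562 in 2046 of 2733, with a median of 0.78.

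**Figure D3:**
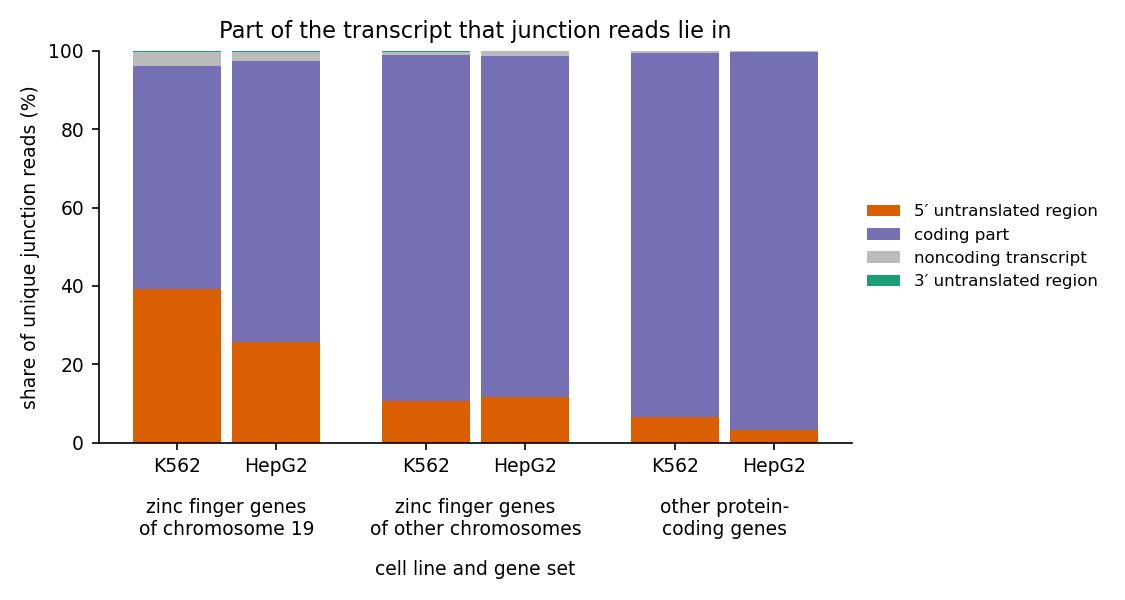
Share of uniquely mapped junction reads (y axis, %) by the part of the transcript, for K562 and HepG2 in each of 3 gene sets. Chromosome 19 zinc finger genes have 39.2% of reads in the 5′ untranslated region in K562 and 25.6% in HepG2, against 6.50% and 3.28% in other protein-coding genes.

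On the short arm the start codon itself sits at a splice junction. In 36 of 125 coding members (28.8%) an annotated junction lies right after the start codon, so that exactly 3 coding bases precede the intron, against 3.34% of other coding genes. These were 31 of 43 members in clusters 1 to 4 and 3 of 72 in clusters 5 to 10. The share was 12 of 14 in cluster 4, 11 of 15 in cluster 3, 4 of 10 in cluster 2 and 4 of 4 in cluster 1. Sequences of 10 such junctions of cluster 4 are given because they carry the likeness of its genes, with the start codon in capitals and the intron position at its end.
ZNF101, intron chr19:19668967-19677863, plus strand: cggaagccggaaATGgactcagtggccttt
ZNF14, intron chr19:19714488-19732955, minus strand: ggacgctgggaaATGgactcagtctccttt
ZNF682, intron chr19:20024377-20039342, minus strand: ggaagccgaaaaATGgaactgttgacattc
ZNF430, intron chr19:21020804-21022788, plus strand: ggaagcctagaaATGgagaacctgaagtct
ZNF431, intron chr19:21142187-21143550, plus strand: gaaagcctagaaATGgacgacttgaaatat
ZNF708, intron chr19:21328142-21329209, minus strand: ggaagcctagaaATGgtgaaggtttttctt
ZNF738, intron chr19:21359144-21361765, plus strand: ggaagcctagaaATGgacgacctgaggtat
ZNF100, intron chr19:21765787-21767426, minus strand: agaagcctagaaATGgatgacccgaggtat
ZNF257, intron chr19:22052636-22060507, plus strand: ggaagcctagaaATGatggagtcttgctct
ZNF681, intron chr19:23755552-23758746, minus strand: ggaaacctagaaATGgaaccattgaaattt

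Footprints over these junctions were a large part of the short-arm reads. In clusters 1 to 4 they made up 47.0% of reads in K562 (45.4 to 48.8) and 37.7% in HepG2 (35.8 to 39.5), and in clusters 5 to 10 they were 0 of 3466 K562 reads and 1 of 2123 HepG2 reads. By cluster they were 62.7% in K562 and 69.3% in HepG2 in cluster 1, 35.5% and 24.0% in cluster 2, 39.1% and 19.2% in cluster 3, and 66.3% and 56.8% in cluster 4. Single genes set some of these values: cluster 2 had 6.84% in K562 and 6.73% in HepG2 without ZNF121, and cluster 1 had 62.7% and 35.2% without ZNF556. Without ZNF121, clusters 1 to 4 together had 43.1% and 36.1%. Other coding genes had 2.69% and 0.858%. The zinc finger genes of other chromosomes had 31.5% and 1.37%, and 3.91% and 1.35% without ZNF595, a gene of chromosome 4 whose junction of this kind had 8761 reads in K562 and 3 in HepG2.

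Single junctions in that set held most of their gene's reads. That of ZNF101 had 270 reads in K562 and 140 in HepG2, that of ZNF430 151 and 32, and that of ZNF100 136 and 21. The junction of ZNF431 had 93 and 71. That of ZNF682 had 0 and 25 and that of ZNF681 21 and 0, the same directions as their genes. ZNF121, in cluster 2, had 462 and 133 at its most-read junction of this kind.

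**Figure D4:**
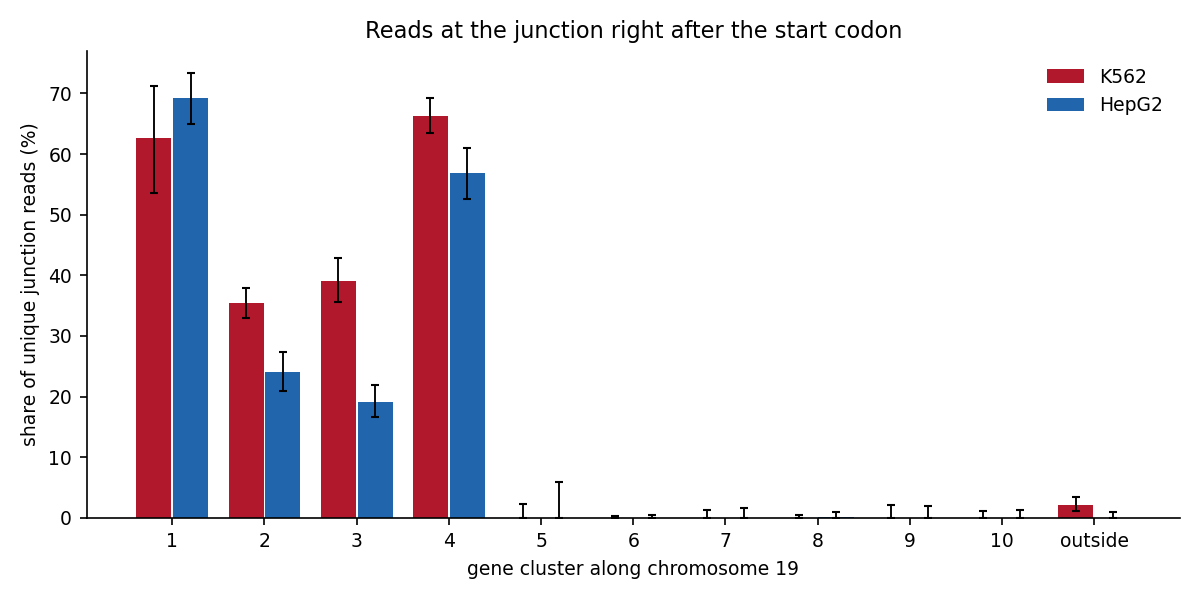
Share of member junction reads (y axis, %) at junctions right after the start codon, by gene cluster (x axis), with K562 and HepG2 side by side and exact 95% intervals as error bars. Clusters 1 to 4 lie between 19.2% and 69.3%, and clusters 5 to 10 between 0 and 0.170%.

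Alternative splicing could be compared at few members. With 20 or more reads at a shared splice site in each line, 56 junctions of 20 members could be set side by side. A junction was counted when its share at the site differed by at least 20 percentage points with intervals that did not overlap. This held for 6 junctions of 3 members (10.7%), against 3.85% of 24466 junctions in all genes. The 6 are pairs that compete at the same site in each gene, so they are not independent. By gene, 3 of 20 members had a counted junction, against 451 of 5184 genes in all. All 6 junctions lie in 5′ untranslated regions.

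ZNF714 joined the donor of an early exon to the distant acceptor in 58 of 93 reads in K562 (62.4%), against 5 of 28 in HepG2 (17.9%), and to the near one in 35 of 93 and 23 of 28. ZNF146 used the near acceptor in 145 of 198 reads in K562 (73.2%), against 15 of 43 in HepG2 (34.9%). Its other reads at that site, 53 in K562 and 28 in HepG2, joined a farther acceptor. ZNF83, the most-read member of cluster 8 with 106 and 72 reads, reached its acceptor from the near donor in 28 of 48 reads in K562 (58.3%), against 40 of 42 in HepG2 (95.2%), and from a distant one in 18 and 2.

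**Figure D5:**
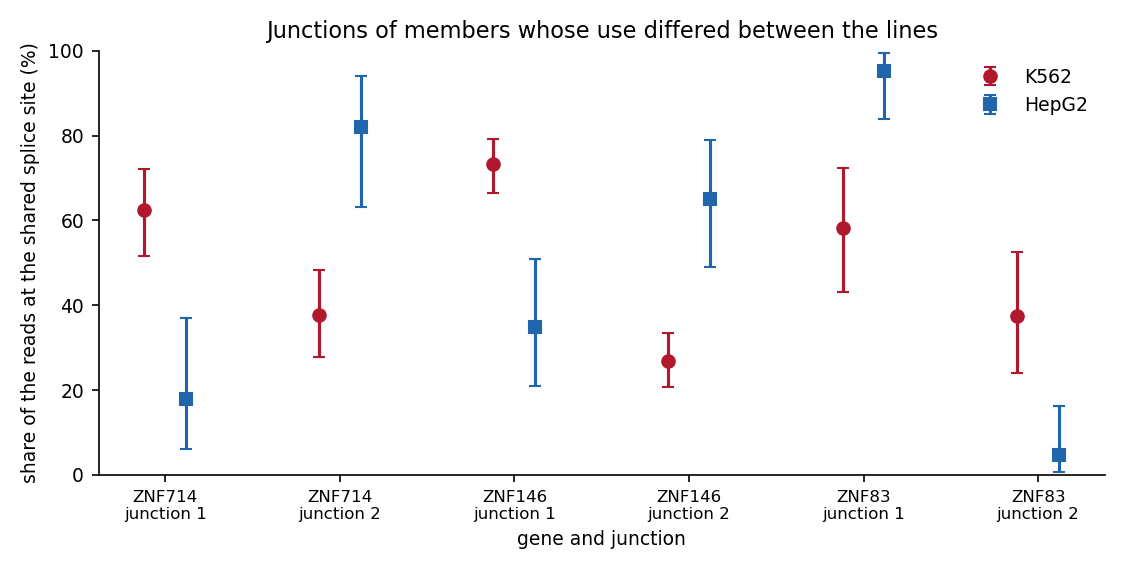
Share of the reads at a shared splice site (y axis, %) that used each of the 6 counted junctions, with exact 95% intervals. For ZNF714 and ZNF146 the 2 junctions share a donor site and for ZNF83 an acceptor site; K562 circles and HepG2 squares swap order between the 2 junctions of each gene.

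Promoters of 114 members were found in the RefSeq table of GRCh38.p14, from 250 bases before to 50 after the start, and the letters CG, which read the same on both strands, were counted. The median was 21.5 CG in members and 27.0 in 8717 coding genes. It was 19.5 in members higher in K562 (n = 14), 18.0 in those lower (n = 12) and 22.0 in the rest (n = 88). A count of 15 or more was held by 78.1% of members, 83.7% of coding genes and 48.9% of all promoters in the table. The 250 bases before the start are shown for ZNF556, whose reads differed most, and for the pair of copies with opposite calls, with CG in capitals.
ZNF556, chr19:2867085-2867334, plus strand: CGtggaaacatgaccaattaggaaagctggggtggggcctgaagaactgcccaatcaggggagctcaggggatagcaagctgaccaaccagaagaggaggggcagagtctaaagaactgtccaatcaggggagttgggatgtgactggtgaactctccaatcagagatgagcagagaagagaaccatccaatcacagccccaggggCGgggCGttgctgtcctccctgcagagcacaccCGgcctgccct
ZNF780A, chr19:40090944-40091193, minus strand: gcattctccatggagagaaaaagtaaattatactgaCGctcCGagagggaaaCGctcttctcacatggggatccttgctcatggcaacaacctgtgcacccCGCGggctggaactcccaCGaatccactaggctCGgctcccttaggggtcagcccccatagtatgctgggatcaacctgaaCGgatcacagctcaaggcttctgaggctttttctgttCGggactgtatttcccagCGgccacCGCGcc
ZNF780B, chr19:40056232-40056481, minus strand: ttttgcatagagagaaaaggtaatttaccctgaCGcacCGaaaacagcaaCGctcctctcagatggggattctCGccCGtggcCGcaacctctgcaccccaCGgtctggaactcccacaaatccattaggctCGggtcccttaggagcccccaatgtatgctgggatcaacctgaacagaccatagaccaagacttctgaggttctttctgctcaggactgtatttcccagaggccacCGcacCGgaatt

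ZNF556 held 4 CG in these 250 bases, ZNF780A 12 and ZNF780B 10. Over the full window ZNF556 held 8 CG, as did ZNF69, and no matched member held fewer. The tables hold no measure of DNA methylation or of binding.

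The corepressor genes that KRAB zinc finger proteins work through were all read in both lines. Of the 25 genes on a list of this pathway, 5 were higher in K562 (16.8% of all genes were) and 1 was lower (21.9% of all genes were). Their median log2 ratio was 0.42. TRIM28, the KRAB-binding corepressor, had 5094 reads in K562 against 3412 in HepG2, for a ratio of 1.49 (1.42 to 1.55), and SETDB1, which methylates histone H3, had 456 and 339, a ratio of 1.34 (1.16 to 1.55). ATF7IP, the partner of SETDB1, had 268 and 81, and CBX5 (HP1 alpha) had 2027 and 500. CHD3 and MTA2, of the NuRD complex, had 219 and 39 and 2730 and 1135. PPHLN1 (periphilin), of the HUSH complex, had 2439 and 920. UHRF1, which reads methylated DNA, had 173 reads in K562 against 935 in HepG2, 5.43-fold lower (4.61 to 6.42), with 55.0% of its reads unique.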

How the data were processed

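Ribosome footprints were measured in 2 samples each of K562 and HepG2. The deposited values are read counts per splice junction in 1 table per line that pools both samples, per the file headers, in a column of all mapped and a column of uniquely mapped reads. The submitters' processing notes name the tools cutadapt, Bowtie2 and STAR 2.6.0 and the build GRCh38, with no role for each. The tables list 350863 junctions, of which 6033 are assigned to more than 1 gene and were left out. Unique reads were summed per gene, genes with 20 or more over both tables were kept, and TMM factors (edgeR 4.0.16) gave effective depths of 8336980 for K562 and 8298281 for HepG2. Ratios carry exact conditional binomial intervals (Clopper-Pearson), and 0 counts were set to 3 for ratios. Reads carry no molecular identifiers, so intervals of ratios and shares cover counting error only. Parts of transcripts and fingers came from GENCODE release 29, with coding annotation first, and the finger pattern was C, 2 residues, C, 12, H, 3 to 5, H. Medians carry order-statistic intervals over genes, which treat the genes as independent.

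The members, gene lists and limits were chosen with earlier results of these data known. Named members are the 8 most read, the 10 ranked highest and lowest by the interval bound nearest 1, the most-read and farthest called members of each cluster of 5 or more, every member with a counted junction, 3 on each side of the read minimum and ZFP36. Other members named were chosen after their values were seen. The scripts were tested on simulated counts. Alternatives changed scaling (DESeq2 1.42.0 among them), reads, minimums, limits, junction sets, gaps and name rules. Some genes that are not members are not reported here.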

Additional observations from a re-analysis of the deposited data

Results flagged for a closer look

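Reads outside the comparison were found at several places of the same clusters. The RNA gene ZNF433-AS1, which the name rule leaves out, had 545 unique reads in K562 and 25 in HepG2. Junctions assigned to a chromosome 19 zinc finger gene together with another gene had 933 unique reads in K562 and 614 in HepG2. Among them, a junction of ZNF544 and ENSG00000283515 had 311 and 39, and a junction of ZNF780A and ENSG00000269749 had 130 and 23, the same direction as ZNF780A itself. A further 13 zinc finger genes under the minimum had 20 or more reads once multi-mapped reads were included. The pseudogene ZNF725P had 0 unique reads in both lines and 53 mapped reads in K562 and 32 in HepG2, and ZNF726 had 60 and 37 mapped reads with 1 unique read in all. No replicate check exists for these values.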

How the results depend on the processing

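The count of members higher in K562 moved from 18 to 9 with a minimum of 100 reads (38 members) and to 9 when each gene lost its most-read junction (73 members). The count lower in K562 moved from 15 to 3 and to 5 under the same settings, which leave fewer genes. The median of members moved to 0.88 with scaling by total reads, where all genes moved alike, and to 0.83 with the minimum of 100. Scaling by total reads also moved the medians of clusters 2, 6 and 9 to 1.28, 0.70 and 0.11. A minimum of 100 moved clusters 5, 6 and 7 to 2.20, 1.05 and 1.23, and a minimum of 1 read moved clusters 6 and 9 to -0.61 and 0.56. Cluster 10 moved to 1.99 without the most-read junctions. ZNF788P, ZNF100, ZNF714, ZNF430 and ZNF808 were no longer called without their most-read junction, 4 others higher and 11 lower in K562 fell under the read minimum, and ZNF614 became lower in K562. On coding junctions alone, 96 members met the minimum, with 12 higher and 13 lower in K562, and ZNF714 was not called. Of the members called higher in K562, ZNF146, ZNF788P and ZNF665 had no coding read. ZNF808, ZNF708, ZNF611 and ZNF324B fell under the minimum there too, as did ZNF234 and ZNF615 of those lower. The corepressor count higher in K562 became 8 with total-read scaling and 8 with a 1.5-fold limit, where 2 were lower. Of all genes 24.2% and 24.1% were higher in K562 under these settings, and 28.2% were lower with the 1.5-fold limit. The share of 5′ untranslated reads was 42.1% in K562 and 29.3% in HepG2 with untranslated annotation given precedence (10.2% and 6.26% in other coding genes), 37.5% in K562 with all mapped reads, and 32.1% and 22.2% without ZNF146, an alternative chosen after seeing the data. With a difference of 40 points, 2 junctions were counted. Among the members named by the rule above, no called one changed direction under the alternatives run. The other called members were followed only without their most-read junction, where none changed direction. The cause of the other moves was not tested. No paired analysis was possible because 1 column pools both samples of a line, so leaving out a replicate was not possible either.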
